A study of Mus musculus with 4 samples.

Results

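The regions described here had an ATAC-seq peak in both libraries of wild-type (WT) mouse fetal liver and in neither library of Hemgn knockout (KO) fetal liver. They are called WT-only regions below. The 4 deposited peak lists were merged on chromosomes 1 to 19 and X wherever peaks shared at least 1 bp, which gave 55274 regions, and 1218 of them (2.2%) were WT-only. These regions were chosen by the presence or absence of a peak in each list, so their absence from the KO lists is not a finding, and nothing is read from that percentage. They were ordered by rank, the lower of a region's within-list percentiles of fold enrichment in the 2 WT libraries. For contrast, 27465 regions had a peak in all 4 lists (shared regions), and 778 (1.41%) had one in both KO lists and in neither WT list (KO-only regions).

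ATAC-seq marks open DNA by the cuts of a transposase. The study compared livers from Hemgn KO mice at embryonic day 14.5 (2 libraries) with livers from WT mice of the same age (2 libraries). About 50000 cells went into each reaction. The labels give neither the KO allele nor the strain, and do not tie replicates to single embryos or litters, so differences among libraries of 1 genotype may be technical. The labelled tissue is the whole fetal liver, with no sort named.

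The product of Hemgn, hemogen, is a nuclear protein found in blood-forming cells, and the series title sets it beside BRG1, the motor subunit of BAF chromatin remodellers, in red cell formation. Midway through gestation the mouse liver holds mostly maturing red cells, together with hepatoblasts, macrophages, granulocytes, megakaryocytes and supporting cells. Promoters and enhancers of active genes are open in the cells that use them, so a peak list of whole liver mixes the open regions of all these cells. A narrow or rare open region gives few fragments and lies close to the limit at which a peak caller lists it.

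Few WT-only regions lay on promoters. A promoter window of RefSeq, from 250 bases before to 50 bases after a gene's start, was overlapped by 30 of the 1218 WT-only regions (2.46%), against 35.6% of all shared regions and 12.9% of shared regions weighted to the same ranks. These 30 regions touched 34 windows of 31 genes. The 778 KO-only regions likewise touched few windows, 42, so a low number is not particular to WT-only regions. The windows of 6 of these genes are printed, chosen after their values were seen, because they are the promoters of 3 liver genes and of 3 genes of myeloid cells that carried a peak in WT only. The remaining genes include Acta1, Gstm6, Hba-a1, Myo3a and Ttll6, and how often liver or myeloid genes occur among promoters was not tested. Crp encodes C-reactive protein, an acute-phase plasma protein, and its window is chr1:172697806-172698105 on the plus strand. Slc10a1 encodes the bile acid uptake transporter of hepatocytes (chr12:80968030-80968329, minus strand), and Abcc2 encodes an exporter of the bile canaliculus (chr19:43782058-43782357, plus strand). C5ar2 encodes a receptor for the complement fragment C5a (chr7:16244105-16244404, minus strand), S100a8 part of calprotectin, a neutrophil protein (chr3:90668821-90669120, plus strand) and Camp the antimicrobial peptide cathelicidin (chr9:109849407-109849706, minus strand). All are given in the direction of transcription on build GRCm38.p6. Capitals mark matches on either strand to TGANTCA (the AP-1 and NF-E2 core), AGGAAG (an ETS core) and TTGCNNAA (a C/EBP core), and Abcc2 has none of them.
Crp: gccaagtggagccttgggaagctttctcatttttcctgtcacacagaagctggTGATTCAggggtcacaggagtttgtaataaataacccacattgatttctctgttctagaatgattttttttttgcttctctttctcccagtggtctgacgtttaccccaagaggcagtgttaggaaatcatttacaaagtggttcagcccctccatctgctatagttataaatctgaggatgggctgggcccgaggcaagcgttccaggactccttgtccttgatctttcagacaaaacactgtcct
Slc10a1: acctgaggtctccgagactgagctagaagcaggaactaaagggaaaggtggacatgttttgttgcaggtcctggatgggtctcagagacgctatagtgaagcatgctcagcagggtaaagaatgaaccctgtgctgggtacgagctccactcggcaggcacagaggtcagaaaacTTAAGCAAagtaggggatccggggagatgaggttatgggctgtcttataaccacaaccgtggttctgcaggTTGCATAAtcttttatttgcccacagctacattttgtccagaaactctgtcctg
Abcc2: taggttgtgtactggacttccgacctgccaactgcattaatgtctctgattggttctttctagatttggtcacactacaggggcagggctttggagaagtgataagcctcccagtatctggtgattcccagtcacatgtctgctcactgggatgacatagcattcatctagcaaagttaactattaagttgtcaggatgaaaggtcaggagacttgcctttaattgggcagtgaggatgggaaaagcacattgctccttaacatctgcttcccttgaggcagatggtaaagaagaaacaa
C5ar2: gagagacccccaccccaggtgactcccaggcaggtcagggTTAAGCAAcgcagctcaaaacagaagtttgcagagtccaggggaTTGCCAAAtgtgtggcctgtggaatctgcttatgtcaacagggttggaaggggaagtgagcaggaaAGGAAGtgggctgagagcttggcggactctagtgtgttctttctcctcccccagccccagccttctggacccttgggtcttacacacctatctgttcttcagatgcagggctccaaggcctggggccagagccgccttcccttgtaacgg
S100a8: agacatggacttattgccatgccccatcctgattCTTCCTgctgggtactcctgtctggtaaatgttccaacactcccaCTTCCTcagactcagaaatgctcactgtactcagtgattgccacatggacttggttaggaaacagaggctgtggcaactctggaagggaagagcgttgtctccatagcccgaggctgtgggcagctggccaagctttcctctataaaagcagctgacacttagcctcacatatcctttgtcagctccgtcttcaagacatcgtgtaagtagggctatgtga
Camp: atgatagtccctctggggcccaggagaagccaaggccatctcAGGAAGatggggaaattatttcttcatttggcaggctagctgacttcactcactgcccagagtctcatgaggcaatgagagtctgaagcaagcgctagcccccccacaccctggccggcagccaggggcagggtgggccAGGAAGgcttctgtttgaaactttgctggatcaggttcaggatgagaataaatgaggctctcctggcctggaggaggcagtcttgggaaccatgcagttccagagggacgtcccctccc

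The peaks over these promoters were weak to middling within their lists. The Crp region had folds of 4.95 and 5.17 in WT replicates 1 and 2, from 32 and 16 fragments at the summit, and the nearest peak of either KO list lay 64.2 kb away. The C5ar2 region had folds of 4.63 and 4.89, from 50 and 22 fragments, with a KO peak at 1.73 kb. The S100a8 region had folds of 4.95 and 4.26, from 32 and 13 fragments, and its nearest KO peak was 40.6 kb away. The percentiles of these 3 regions were 42.2 to 46.3 in WT replicate 1, and 37.7 (Crp), 34.7 (C5ar2) and 23.9 (S100a8) in WT replicate 2. Below them came Abcc2, with folds of 3.90 and 3.95, and Slc10a1, with 3.22 and 4.21. The Camp region had folds of 2.70 and 3.95 from 17 and 12 fragments, the first of them near the lowest that WT replicate 1 could call at its library background.

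Promoters under WT-only regions held some short motifs at other shares than promoters under shared regions of the same ranks, but 34 windows give wide limits. The motifs given here are part of 12 searched and were chosen with earlier results of these data known, so the shares are a description. TGANTCA was present in 8 of 34 (23.5%, exact 95% interval 10.7 to 41.2), against 6.73% of promoters under same-rank shared regions and 7.04% of all 21045 protein-coding promoters. The 8 belonged to Crp, Smim14, Fgd4, Mia2, Myo3a, Cryba2, Sgsm1 and Vwa7. AGGAAG was in 19 (55.9%, 37.9 to 72.8), against 34.98% at the same rank and 34.1% of all promoters. It had 6 matches in Myo1g, some of them overlapping, and 2 each in S100a8, Camp, Ttll6, Sult1a1 and Acta1. TTGCNNAA was in 4 (11.8%, 3.30 to 27.5), against 7.72% and 10.3%. It had 4 matches in a Timd2 window, of which 2 overlap on opposite strands, 2 each in C5ar2 and Slc10a1 and 1 in Ttll6. The GATA core AGATAA was in 0 of 34, which allows a share of up to 10.3%, against 7.45% at the same rank and 9.68% of all promoters, and its variant TGATAA was in 2 (5.88%), against 4.86% and 7.51%. CACCC, a core bound by KLF factors, was in 16 (47.1%, 29.8 to 64.9), against 70.3% and 59.8%. In the 42 promoters under KO-only regions, TGANTCA was in 7.14%, AGGAAG in 42.9% and TTGCNNAA in 7.14%. AGATAA was in 4.76% of them, TGATAA in 7.14% and CACCC in 69.0%.

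Base composition differed along with these shares. Promoters under WT-only regions held 8.06 CG dinucleotides on average, against 16.9 under same-rank shared regions, and a GC content of 55.3%, against 61.0%. Promoters under KO-only regions also had a lower GC content, 57.2%. The median number of CG dinucleotides per promoter was 6 under WT-only regions, 10 under KO-only regions and 22 under all shared regions. The part of base composition in the motif shares was not tested. The intervals cover counting error only, and a match is no evidence that a factor binds. The windows of Pla2g2c and Ubxn10, which lie on opposite strands, overlap and are not independent.

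The 2 libraries of each genotype differed in depth. Peaks used numbered 35415 and 43005 in Hemgn KO replicates 1 and 2, and 47845 and 34167 in WT replicates 1 and 2. The background per summit, recovered from the deposited fold and p of each peak, was 2.49 and 3.80 fragments in the KO libraries and 5.67 and 2.29 in the WT libraries. At that background the lowest fold a peak could have was 2.87 and 2.71 in KO and 2.40 and 3.04 in WT, which stands for at least 9, 12, 15 and 9 fragments in the same order. The targeted gene itself told nothing about the labels: every library had 2 summits within or by Hemgn, in 2 shared regions, and 0 regions there were WT-only. Markers of red cells had a summit within 1 kb of a gene end at 10 and 11 of 12 genes in KO and at 11 and 11 in WT, with Gata1 listed in none of the libraries.

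WT-only regions were mostly low in the WT lists. Of 31855 regions with a peak in both WT lists, 3.82% had no KO peak, and of 31601 regions with a peak in both KO lists, 2.46% had no WT peak. The share without a KO peak was 13.2% (184 of 1392) at ranks up to 5, reached 15.2% at ranks of 10 to 15, and was 0.489% (41 of 8388) at ranks of 50 to 75 and 0.0236% (2 of 8482) above 75. The mirror share, of regions in both KO lists without a WT peak, was 7.79%, 9.39%, 0.278% and 0.0575% in the same classes. The 2 curves had the same form, with the WT-only one above the other in every class but the highest. In a bulk sample, fewer cells of a type and less open DNA per cell cannot be told apart, and a peak below the limit of a list cannot be told from none.

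**Figure D1:**
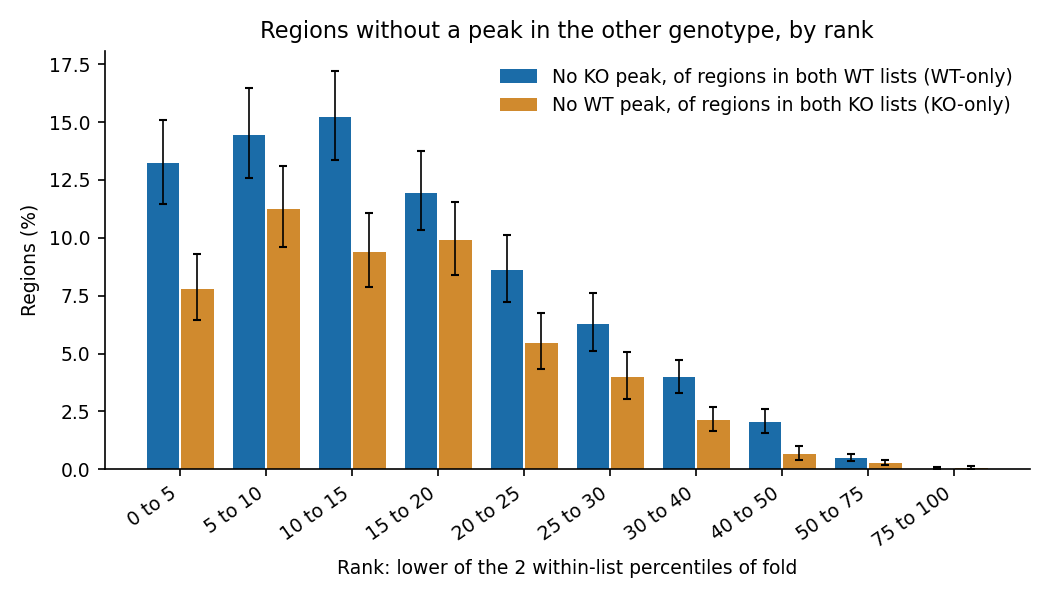
Share of regions (y axis, %) without a peak in the other genotype, by class of rank (x axis, lower of the 2 within-list percentiles of fold). Blue bars are WT-only regions among regions in both WT lists, orange bars KO-only regions among regions in both KO lists, and error bars are exact 95% intervals; both shares are over 5% up to rank 25 and under 1% above rank 50.

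Both WT libraries placed these regions low, the shallower one lower. The median rank was 16.1 (quartiles 8.23 and 26.3), against 59.2 for shared regions. Ranks of at most 25 held 888 of the WT-only regions (72.9%), and ranks over 50 held 43 (3.53%), against 60.5% of shared regions. The count over rank 50 was 162 (of 1605) with windows of 100 bp around summits, and it was 66 (of 1712) without Hemgn KO replicate 1, 229 (of 3931) without Hemgn KO replicate 2 and 460 (of 8402) without WT replicate 2, where fewer lists make up the rule. Median percentiles were 29.2 in WT replicate 1 and 18.6 in WT replicate 2, and the second library gave the lower percentile at 928 regions (76.2%). The libraries placed most regions within a moderate distance of each other: the median gap was 10.8 percentile points, and 187 regions (15.4%) differed by over 25. The folds behind these percentiles ran from 1.44 to 26.5 in WT replicate 1 (median 3.75) and from 1.52 to 22.5 in WT replicate 2 (median 3.95). A median peak held 29 fragments at its summit in the first library and 14 in the second. WT-only peaks were also short. They measured 369 ± 152 bp in WT replicate 1 and 313 ± 109 bp in WT replicate 2 (SD over 1218 regions), where shared regions of the same ranks averaged 652 and 495 bp. Length is not independent of the rule, since a longer peak more readily shares 1 bp with a KO peak. Lengths of KO-only peaks are not given here, so nothing is read from this difference.

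**Figure D2:**
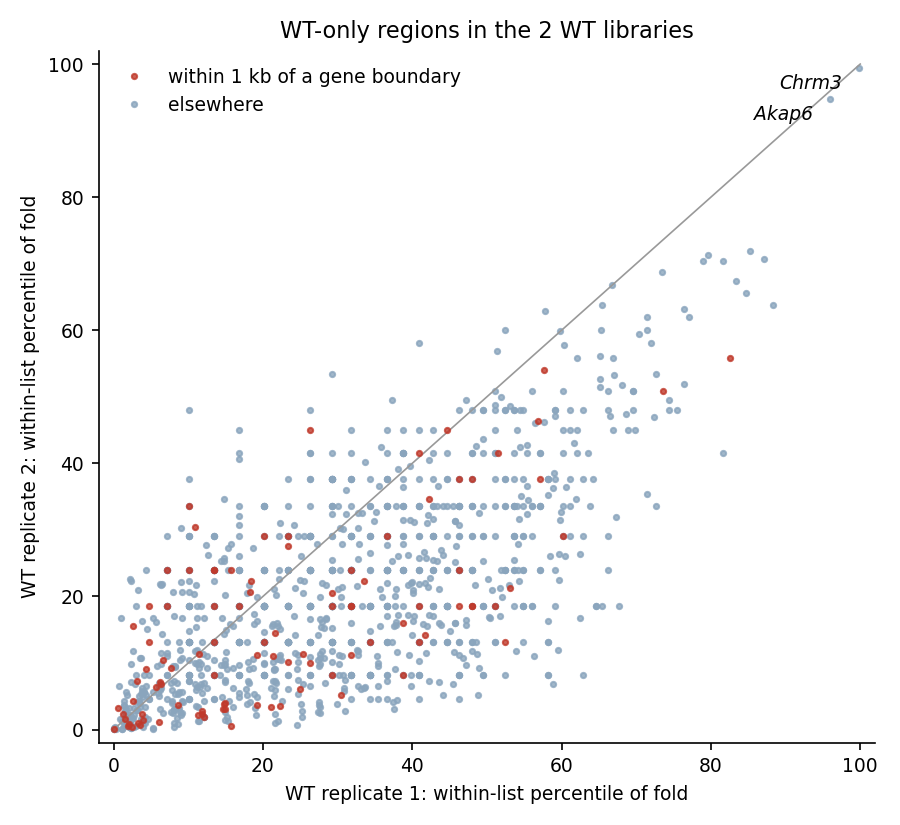
Each point is 1 of the 1218 WT-only regions, by its within-list percentile of fold in WT replicate 1 (x axis) and WT replicate 2 (y axis), with regions within 1 kb of a gene boundary in red and the line of equal percentiles in grey. Most points lie in the lower left under the line (928 regions), and the regions by Chrm3 and in Akap6 stand alone at the upper right.

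Most WT-only regions had folds above the lowest fold callable at the library backgrounds of the KO lists, but few stood far above it. At 967 of 1218 (79.4%), the fold in each WT library was above the lowest callable fold of each KO library, and at 64 (5.25%) it was above 2 times the higher of those limits. Among KO-only regions the mirror shares were 76.0% and 2.83%. WT replicate 1, the deepest library, gave more folds below these limits than WT replicate 2: its fold lay under the limit of Hemgn KO replicate 1 at 224 regions and of Hemgn KO replicate 2 at 142, against 97 and 69. These limits hold at the library background only. On a higher local background a peak was listed at a lower fold, as at Sphk1 with 1.44 in WT replicate 1, where the limit was 2.40. Folds do not compare heights between libraries, so whether these regions could have been listed in KO was not tested.

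Of 8375 regions with a peak in WT replicate 1 and none in KO, 14.5% (13.8 to 15.3) had a peak in WT replicate 2. Of 2247 regions with a peak in WT replicate 2 and none in KO, 54.2% (52.1 to 56.3) had one in WT replicate 1, the deeper library. These overlaps are the WT-only regions themselves, so the shares describe the rule and are read no further.

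WT-only regions at the low and high ends of local background differed in rank and in nearness to KO peaks. Among 1204 regions where it was recovered in both WT libraries, 613 (50.9%) sat at the library background within 2%. Their median rank was 18.6, and 15.5% had a KO peak within 5 kb. Another 150 (12.5%) had a local background over 2 times that of the library in both, a median rank of 2.32, and a KO peak within 5 kb at 92.7%. The regions of high background therefore had many fragments and low folds, since fold is a ratio to that background. The remaining regions of the 1204 fell in neither group. The region at Hba-a1, an adult alpha-globin gene, held 334 and 137 fragments at folds of 2.19 and 2.56, and lay 1.06 kb from a KO peak. Hba-a1 has a near-identical copy, Hba-a2, so the placement of its reads is uncertain, and a KO-only region was assigned to Hba-a2. A region near Pim1, a survival kinase gene, held 378 and 108 fragments at folds of 2.48 and 2.04, and one in Ank1, the ankyrin of the red cell skeleton, held 314 and 94 at 2.33 and 1.85, with a KO peak at 0.242 kb.

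The 25 WT-only regions of highest rank had folds of at least 6.24 in both WT libraries, more than 2 times the lowest fold that either KO list could call at its background. None of them was at a gene boundary: 9 lay inside a gene, 13 outside within 100 kb of one and 3 farther away. A KO peak lay within 5 kb of 6 of them, and 9 had none within 50 kb. On chromosome 14 were 7 of the 25, where that chromosome held 56 of all 1218 WT-only regions. The 7 are not independent: they include neighbouring regions near Ang6, and those in Samd4 (from 47017351) and near Wdhd1 (from 47222742) also lay close together. Nothing is read from their number.

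**Figure D3:**
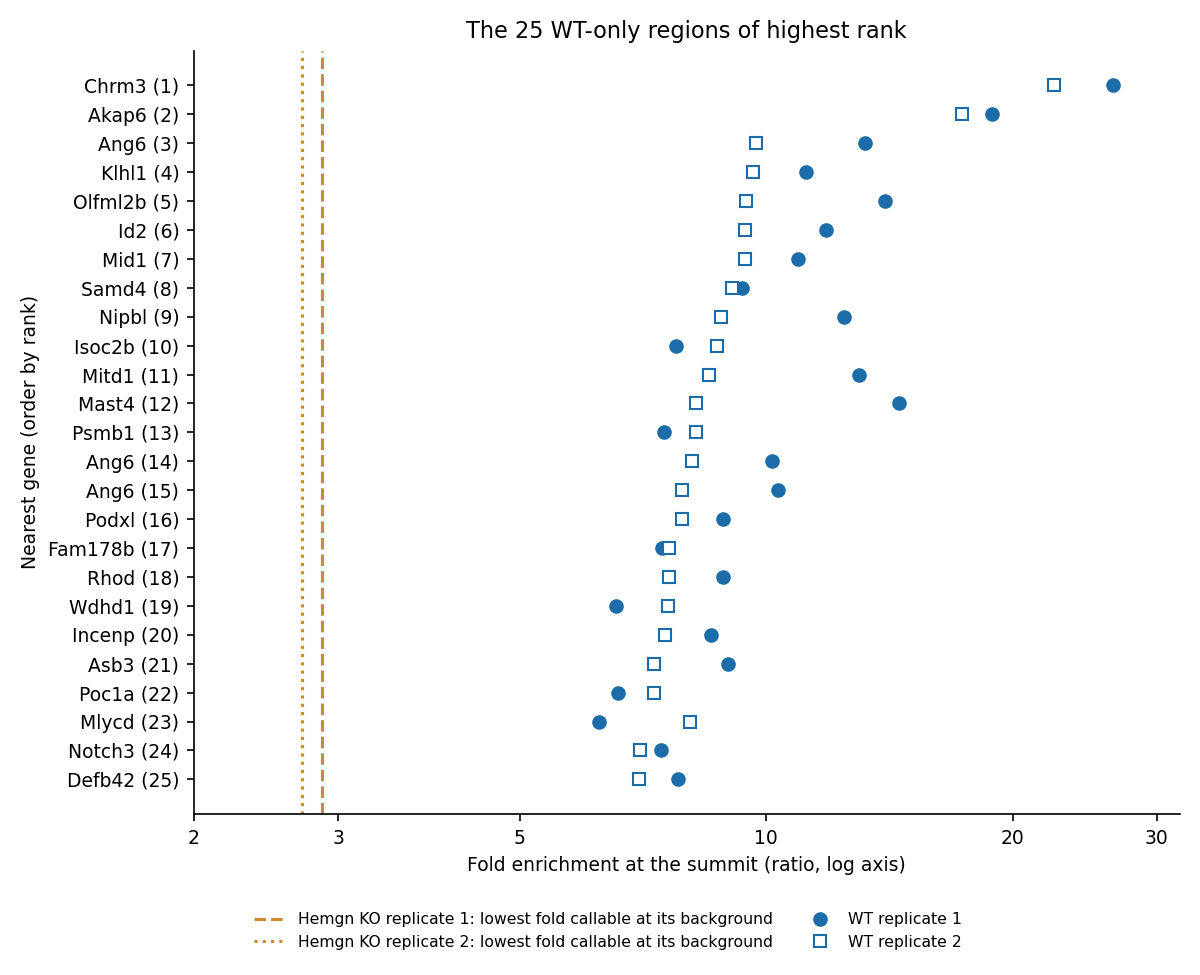
Fold enrichment at the summit (x axis, ratio on a log scale) of the 25 WT-only regions of highest rank, by nearest gene (y axis, order in brackets), in WT replicate 1 (filled circles) and WT replicate 2 (open squares). Vertical lines give the lowest fold callable at the background of Hemgn KO replicate 1 (dashed, 2.87) and Hemgn KO replicate 2 (dotted, 2.71), and all 50 points lie to the right of both.

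Apart from the first pair, the strongest of these regions formed a continuous range. The region 41.1 kb from Chrm3, which encodes a muscarinic receptor (chr13:9834307-9834513), had folds of 26.5 and 22.5 in WT replicates 1 and 2, at percentiles of 99.8 and 99.4. The region in Akap6, whose product tethers protein kinase A (chr12:52735129-52735729), had folds of 18.9 and 17.3. The nearest KO peaks were 69.0 kb from the first and 33.6 kb from the second. The region in Klhl1, a kelch-family gene (chr14:96353513-96354535), had folds of 11.2 and 9.64, and the nearest KO peaks were 1813 kb away in Hemgn KO replicate 1 and 163.9 kb away in Hemgn KO replicate 2. Samd4, which encodes an RNA-binding repressor of translation, held the longest of them (chr14:47017351-47019066, 1716 bp), with folds of 9.33 and 9.08 and −log10 q of 172 and 66.3, and its nearest KO peak was 67.7 kb away. These 4 lay far from any KO peak.

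Other regions among the 25 stood next to KO peaks. The region 11.9 kb from Olfml2b, an extracellular matrix gene (chr1:170632450-170632857), had folds of 13.98 and 9.46, with KO peaks 1.70 and 1.61 kb away in KO replicates 1 and 2. The region in Fam178b (chr1:36670133-36670551) had folds of 7.47 and 7.599, with KO peaks at 0.708 and 0.482 kb. In Poc1a, a centriole gene, the region had folds of 6.60 and 7.29 and KO peaks at 1.52 kb. WT-only regions of high rank thus included summits beside KO peaks as well as isolated ones.

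Of the other regions among the 25, that in Nipbl, the cohesin loader, had folds of 12.4 and 8.81. Regions near Mast4, a kinase gene, and in Mitd1, a gene of the last step of cell division, had 14.5 and 8.21, and 13.0 and 8.51. Near Incenp, of the chromosomal passenger complex, the folds were 8.57 and 7.52, and near Wdhd1, a replication factor gene, 6.56 and 7.597. The region by Notch3, a receptor gene, had 7.44 and 7.01. The region near Mid1, a microtubule-bound ubiquitin ligase gene on chromosome X (chrX:169994008-169995024), had 10.9 and 9.42. The Id2 region was 372 kb, the Podxl region 241 kb and the Asb3 region 127 kb from the gene that names it, so these names mark neighbours only.

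Some WT-only regions came in groups. Near Ang6, an angiogenin-family ribonuclease gene on chromosome 14, 4 WT-only regions lay between 44029052 and 44046998. Their folds were 13.2 and 9.73, 10.2 and 8.12, 10.3 and 7.90, and 5.75 and 4.55 in WT replicates 1 and 2. The 1 other merged region in this stretch was a peak of WT replicate 2 alone, at a fold of 3.95. The nearest peaks of Hemgn KO replicate 1 lay 95.7 kb or more from the 4 regions near Ang6, and those of Hemgn KO replicate 2 lay 44.9 kb or more away. On chromosome X, 5 WT-only regions lay between 50599885 and 50615156, with Olfr1324, an olfactory receptor gene 174 to 188 kb away, as the nearest gene; they were picked after their values were seen. Their folds ran from 5.83 to 7.44 in WT replicate 1 and from 3.86 to 6.42 in WT replicate 2. The nearest KO peaks lay 19.8 to 34.5 kb away. These were 5 of 9 regions with peaks in both WT lists in that 1-Mb window. Whether reads place uniquely in the stretches near Ang6 and Olfr1324 was not tested.

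Elsewhere the regions were scattered. The window with the most, 8 of 73, was at 105 to 106 Mb of chromosome 8, where the ranks of the members, by Zdhhc1, Hsd11b2, Tmem208, Hsf4, Ranbp10, Atp6v0d1, Lrrc29 and Tsnaxip1, were at most 4.95. In 505 windows there was 1, in 179 there were 2, and 65 held 3. By chromosome, the share of regions in both WT lists that were WT-only ran from 2.70% (30 of 1111) on chromosome 19 to 5.28% (37 of 701) on chromosome X, with chromosome 14 at 5.23% (56 of 1071). The stretch of chromosome 14 from 40 to 60 Mb had 20 WT-only of 274 regions (7.30%), and 22 KO-only regions. Among genes within 100 kb, 976 had 1 WT-only region, 67 had 2, 5 had 3 and Ang6 had 4. The 5 were Myo10, an unconventional myosin, Ybx3, a DNA- and RNA-binding protein, Spred2, a brake on Ras signalling, Mvb12b, an ESCRT subunit, and Lipc, hepatic lipase.

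WT-only regions had a lower share at gene boundaries than shared regions of the same ranks, and a share close to that of regions that just missed the rule. A summit within 1 kb of either end of a protein-coding gene was found for 98 WT-only regions (8.05%, 6.58 to 9.72), for 8.74% (6.85 to 10.9) of KO-only regions, and for 9.35% of regions in both WT lists and exactly 1 KO list, weighted to the same ranks. Shared regions of the same ranks were there at 19.0%, a difference of −10.9 percentage points (WT-only minus shared), and all shared regions at 41.3%. No test over libraries bears on this difference. Inside genes lay 55.9% of WT-only regions, 53.5% of KO-only regions and 52.3% of same-rank shared regions. Outside within 100 kb lay 32.4%, 32.6% and 26.5%, and over 100 kb from any gene 3.61%, 5.14% and 2.24%. WT-only regions of low rank were nearer to genes than those of high rank: of the 339 with ranks up to the lower quartile, ties included, 12.7% were at boundaries and 0.885% over 100 kb away, and of the 300 with ranks above the upper quartile 4.33% and 7.33%.

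**Figure D4:**
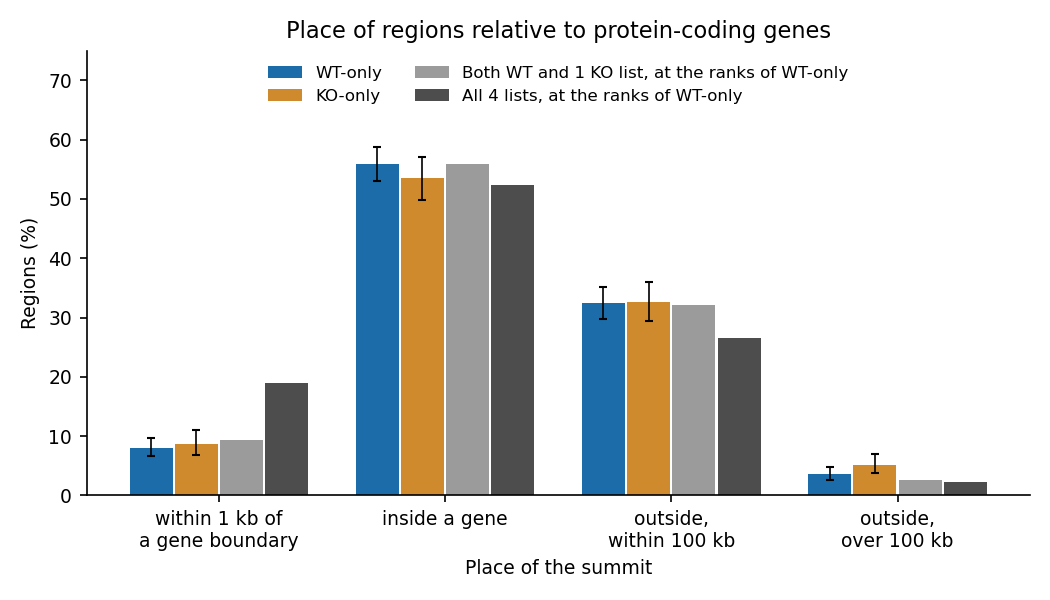
Share of regions (y axis, %) by place of the summit relative to protein-coding genes (x axis), for WT-only regions, KO-only regions, and regions of both WT lists with 1 KO peak or with both, weighted to the ranks of WT-only regions. Error bars are exact 95% intervals where a plain count was made; the boundary share of the regions in all 4 lists, 19.0%, stands above the other 3, which lie between 8.05% and 9.35%.

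They also lay farther from other open chromatin. A shared region was within 5 kb of 23.5% of WT-only regions and within 50 kb of 86.0%. For KO-only regions the shares were 21.9% and 83.8%, and for shared regions of the same ranks, set against other shared regions, 47.9% and 91.0%. The median distance of WT-only regions to a shared one was 12.01 kb. Any KO peak at all lay within 500 bp of 74 WT-only regions (6.08%) and within 5 kb of 529 (43.4%), and the mirror values for KO-only regions were 8.10% and 43.3%.

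At gene boundaries, the WT-only regions of highest rank named genes of several tissues. The highest lay by Oxr1, an oxidation resistance gene, with folds of 12.1 and 6.99 in WT replicates 1 and 2, and the next by Ttll1, a tubulin-modifying enzyme gene, with 6.20 and 6.73. Beside the Ttll1 region, Hemgn KO replicate 2 had a peak at 0.382 kb. Pdcd7, of the minor spliceosome, had folds of 9.40 and 6.38, and Tob2, an antiproliferative gene, 6.13 and 5.91. Kcnd3, a potassium channel gene, had 4.80 and 5.78, and Slc36a2, an amino acid transporter gene, 5.41 and 5.47. Pcdhga12, a protocadherin gene, had 4.50 and 5.47, the olfactory receptor gene Olfr324 6.15 and 5.17, and the predicted gene Gm38699 5.10 and 5.17. Crp, described above with its promoter, completes these 10. None of the 10 genes is in a red cell list used here. Those lists are small, the largest with 184 of 30652 regions assigned to a gene, so nothing is read from this. KO peaks were within 2 kb only at Ttll1 and Pcdhga12.

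Among 16 gene lists, hepatocyte genes had the most WT-only regions. The list covers plasma proteins, metabolic enzymes and liver transcription factors, and 11 of its 74 regions with peaks in both WT lists (14.9%, 7.66 to 25.04) were WT-only. Over all regions assigned to a gene within 100 kb the share was 1129 of 30652 (3.68%), and over the 16 lists 46 of 916 (5.02%). Their median rank was 17.1, against 15.7 over all assigned WT-only regions, and 2 KO-only regions stood at Dlk1, a hepatoblast gene of the same list. The list was chosen with earlier results of these data known, so its count is a description.

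The albumin gene Alb had the hepatocyte region of highest rank. It lay 13.0 kb from the gene (chr5:90447654-90448109) with folds of 5.40 and 5.47, from 35 and 17 fragments, and the nearest KO peak was 14.5 kb away. Lipc had 3 regions inside the gene, with folds of 3.60 and 4.56, 3.41 and 4.68, and 4.48 and 3.92, and 1 of them lay 0.851 kb from a peak of Hemgn KO replicate 2. Regions near Fgg, the fibrinogen gamma chain gene, and Cps1, of the urea cycle, had 4.95 and 4.26, and 4.50 and 4.26. Near Prox1, a liver and lymphatic regulator, the folds were 5.40 and 3.65, and near Afp, the fetal plasma protein gene, 4.38 and 3.56. The nearest KO peak lay 64.3 kb from the Cps1 region and 28.9 kb from the Prox1 region, and 5.30 kb from the Fgg and 6.45 kb from the Afp region, where the median over all WT-only regions was 6.23 kb.

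The others of the list lay close to KO peaks or low in rank. The Foxa2 region, by a pioneer factor of the liver, had folds of 2.85 and 4.05 and a KO peak at 0.315 kb. The Krt18 region, by an epithelial keratin gene, had 4.32 and 3.60 and a KO peak at 0.537 kb, and the Ahsg region, in the fetuin gene, had 2.74 and 3.10 with one at 2.07 kb. All 11 were thus between 2.74 and 5.47 in fold, within the lower and middle part of both lists.

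Boundary peaks of the same list were fewer in KO than in WT. They were at 13 and 14 of 26 genes in Hemgn KO replicates 1 and 2 and at 18 and 17 in WT replicates 1 and 2. The lists held 35415 and 43005 peaks in KO and 47845 and 34167 in WT, in the same order. The share of all genes with a boundary peak in each library is not given here, so the difference cannot be assigned to hepatocyte genes. Afp, Cps1, Cyp7a1, Foxa1, Lipc, Serpina1a, Tat and Ttr had none in any of the libraries, Alb had none in Hemgn KO replicate 1 and Fgg none in Hemgn KO replicate 2. The share of hepatocytes in each sample is not given, and its part in the WT-only regions was not tested.

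The hepatocyte share stayed above that of all assigned regions with any 1 library left out. Its count of WT-only regions was no longer above that of KO-only regions without WT replicate 1. With Hemgn KO replicate 1 left out it was 16.2%, against 5.20% over all assigned regions, and with Hemgn KO replicate 2 left out 34.2%, against 12.04%. Without WT replicate 1 it was 15.6%, against 6.68%, and without WT replicate 2 it was 28.3%, against 17.3%. Without WT replicate 1, the list had 12 WT-only and 12 KO-only regions, where the 4 libraries together gave 11 and 2. Over all merged regions that setting gave 2305 WT-only and 3989 KO-only regions, against 1218 and 778 with the 4 libraries, so KO-only regions were in excess there.

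**Figure D5:**
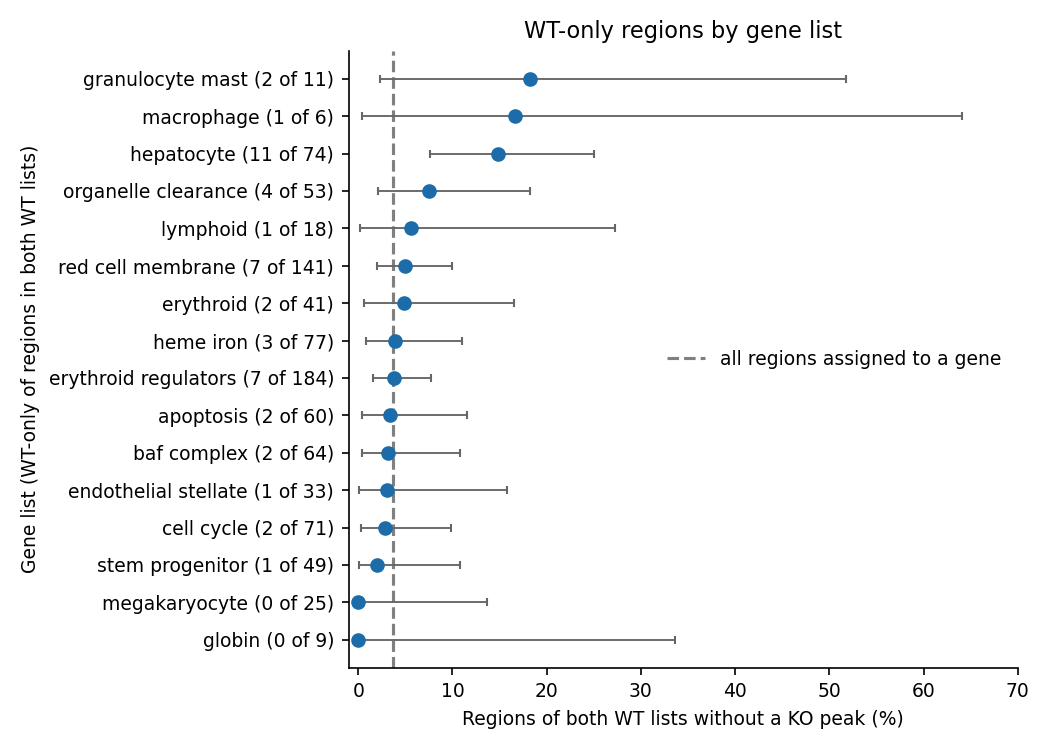
For each of 16 gene lists (y axis, with counts), the share of regions in both WT lists that had no KO peak (x axis, %), with exact 95% intervals that cover counting error only. The dashed line is the share over all regions assigned to a gene, 3.68%; hepatocyte genes are the list whose interval (7.66 to 25.04) lies above that line.

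Granulocyte, macrophage and lymphocyte genes had few regions in all. Of 11 granulocyte and mast cell regions, 2 were WT-only (18.2%, 2.28 to 51.8), at the S100a8 and Camp promoters shown above, and 0 were KO-only. Boundary peaks of this list were at 3 and 4 of 18 genes in KO and at 6 and 3 in WT, with the defining genes Elane and S100a9 listed in none and Mpo in Hemgn KO replicate 2 alone. The macrophage receptor gene Csf1r held 1 WT-only region of 6 in its list, with folds of 3.75 and 4.15 and KO peaks at 3.38 kb. Macrophage boundary peaks were at 3 and 5 of 15 genes in KO and 6 and 3 in WT, with the defining genes C1qa, Cd68 and Marco at 0 in all libraries. Near Cd2, a T cell adhesion gene, 1 of 18 lymphoid regions was WT-only, with folds of 3.45 and 4.86, and 2 KO-only regions stood at Blnk and Cd79b. Lymphoid boundary peaks were at 5 and 5 of 16 genes in KO and 4 and 3 in WT, with Pax5 and Rag1 at 0. The part of these cell types in the WT-only regions was not tested. Counts this small leave each share within a wide interval.

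Genes of the red cell membrane carried WT-only regions at a share near that of all genes, and at low ranks. Of 141 regions at red cell membrane genes, 7 were WT-only (4.96%, 2.02 to 9.96), among them regions at Epb41, Slc2a1, Ank1, Rhag, Tmod1 and Epb42, and the median rank of the 7 was 3.36. The Tmod1 region, at the boundary of an actin-capping gene, had 3.54 and 3.19, and the Epb42 region, in the band 4.2 gene, 2.82 and 2.73. In Slc2a1, the glucose transporter gene, the folds were 1.80 and 1.83 from 107 and 42 fragments. Each of these named genes thus carried its WT-only region as a weak summit, with folds of at most 3.54. KO-only regions at red cell membrane genes numbered 2, at Cd47 and Sptb.

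Heme genes likewise had WT-only regions of low rank. Heme and iron genes had 3 WT-only of 77 (3.90%), 2 near Fech, the gene of ferrochelatase, which adds iron to complete heme, with folds of 2.88 and 3.44, and 2.72 and 3.18, and 1 in Tfrc, the transferrin receptor gene, with 2.197 and 2.76. The Alas2 region, in the erythroid gene of the first heme enzyme, had 2.90 and 2.45 from 96 and 27 fragments. It and the Hba-a1 region were the 2 WT-only regions of 41 at erythroid marker genes, where 2 KO-only regions stood at Hba-a2 and Slc4a1. At heme and iron genes 1 region was KO-only, at Slc25a37. Of 9 further regions at globin genes, 0 were WT-only, and all 9 were shared.

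Erythroid regulators had 7 WT-only of 184 regions (3.80%, 1.54 to 7.68), with a median rank of 10.1. The strongest lay 21.7 kb from Bach1, the heme-sensing repressor gene (chr16:87754852-87755120), with folds of 5.40 and 5.17 and KO peaks 7.87 and 13.7 kb away in KO replicates 1 and 2. In Ikzf1, a lymphoid and erythroid zinc finger gene, the folds were 4.28 and 3.95, with a peak of Hemgn KO replicate 2 at 0.823 kb. Near Kdm1a, which encodes the histone demethylase LSD1, they were 4.65 and 3.65, and in Sox6, a repressor of embryonic globin, 2.85 and 3.65. Klf13, Ldb1 and Klf3 had regions at folds of 2.86 and 3.46, 2.61 and 3.84, and 3.88 and 2.78. The nearest KO peak lay 53.5 kb from the Kdm1a region, 17.9 kb from the Sox6 region and 7.87 kb from the Bach1 region. The median over all WT-only regions was 6.23 kb. The regions of Klf13 and Klf3 lay within 1.14 kb of a KO peak. KO-only regions at erythroid regulators numbered 3, at Bcl11a, Foxo3 and Zfpm1.

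The BAF complex, which the series title bears on through BRG1, had 2 WT-only of 64 regions (3.13%, 0.381 to 10.8). The region near Dpf3, a subunit with histone-reading fingers, had folds of 6.90 and 5.47 (chr12:83501998-83502518) and KO peaks at 14.03 and 7.55 kb. The region in Bcl7a had 2.17 and 2.211 from 111 and 49 fragments, with a KO peak at 0.279 kb. Of 53 regions at organelle clearance genes, 4 were WT-only (7.55%, 2.09 to 18.2), at Map1lc3b, an autophagosome protein gene (folds of 3.66 and 3.52), Atg4a, of the same pathway (4.12 and 3.24), Rac1, a small GTPase gene (2.82 and 3.02) and Xpo7, a nuclear exportin gene (2.22 and 3.14). Of these 6 regions, that near Dpf3 ranked highest, at 41.6, and the others ranked at 10.8 or below.

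Remaining lists had 1 or 2 WT-only regions or none. Top2a, a DNA topoisomerase gene of dividing cells, had both of the 2 of 71 cell cycle regions, at folds of 2.60 and 3.22, and 2.93 and 2.78. Trp53, the p53 gene, held 1 of 60 apoptosis regions beside that near Pim1, with folds of 4.87 and 3.28, and −log10 q of 103 and 16.9. Hlf, a stem cell factor gene, had 1 of 49 stem and progenitor regions (2.85 and 3.33). Reln, used as a stellate cell marker, had 1 of 33 endothelial and stellate regions (4.28 and 3.98), where 4 KO-only regions stood at Lhx2, Pdgfra and Pecam1. At megakaryocyte genes 0 of 25 were WT-only, and 2 KO-only regions stood at Fli1 and Itgb3. Boundary peaks were at 12 and 12 of 20 endothelial and stellate genes in KO and 12 and 10 in WT, and at 8 and 7 of 14 megakaryocyte genes in KO and 9 and 7 in WT. In these lists the shares lay between 0% and 3.33%, at or below the 3.68% of all assigned regions.

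The rule has an edge on the KO side. Regions in both WT lists and exactly 1 KO list numbered 3172, of which 2683 had the peak in Hemgn KO replicate 2 and 489 in Hemgn KO replicate 1, the shallower of the 2. The weakest single KO peaks that kept a region out were by Rpl31, Bnip3l and Lrrc15, at −log10 q of 1.48, 1.51 and 1.51 for a threshold near 0.05 on q. Just inside, the 3 WT-only regions of lowest rank were at Sphk1, Stradb and Znfx1. Sphk1, a sphingosine kinase gene, had folds of 1.44 and 1.52 from 276 and 123 fragments, and Stradb and Znfx1 had 1.60 and 1.60, and 1.61 and 1.73. All 3 were summits on a high local background, with KO peaks 0.336 to 2.39 kb away.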

How the data were processed

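ATAC-seq was measured in 4 libraries, Hemgn KO replicates 1 and 2 and WT replicates 1 and 2, each from about 50000 fetal liver cells at embryonic day 14.5, per the labels. The authors deposited 1 peak list per library, none pooled, laid out as a MACS2 narrowPeak table. MACS2 2.2.7.1, Picard 2.21.4, SAMtools 1.9 and Bowtie2 2.3.5 are named in the submitters' processing notes. Roles and settings of these tools, and the genome build, were not given in the sources used here. In every list the deposited score is 10 times the −log10 q without its decimals. Fold, as deposited, is the authors' ratio of summit signal to its background within 1 library. Each peak also has the authors' deposited −log10 p and −log10 q, and a summit position, which was used for placement. These values rank peaks within a list and do not compare heights between libraries.

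Lists were read with Python 3.11.15, pandas 2.3.3, numpy 2.4.6 and scipy 1.17.1. Peaks were merged into regions by 1 shared bp. A percentile of fold was taken within each whole list, and a region's rank is the lower of its 2 values. Shared regions were weighted to the ranks of WT-only regions in classes of 5 percentile points. Intervals are exact binomial (Clopper-Pearson) at 95% and cover counting error only. No p-values were computed: regions are not replicates, and 2 against 2 libraries allow no exact p under 0.333. Depth is not stated in the lists. Fragments and background at a summit were solved from fold and −log10 p where the latter was under 60, with a tolerance of 0.001; at least 99.98% of these peaks had a solution in each library. On simulated data, 200 of 200 planted WT-only regions were recovered, and the fragment count was recovered at 100% of 1022 peaks. The planted regions were spaced apart with no missed peaks, so this checks the code only.

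Genes are protein-coding RefSeq genes of GRCm38.p6 (21631 on these chromosomes), named by the nearest gene end to the summit. Region coordinates are 1-based and follow the lists. As a check of the build, gene ends had 27.8% to 35.3% of each list's summits within 1 kb, and 6.67% to 7.32% once summits were moved by 5, 20 or 50 kb. Without strand in the table, a gene end is either end. Promoter sequences are those of RefSeq on the same build, and 12 motifs were searched on both strands: AGATAA and its variant TGATAA for GATA factors, CACCC for KLF factors, CAGNTG for E-box factors, AGGAAG for ETS factors, TGTGGT for RUNX factors, TGANTCA for AP-1 and NF-E2, AGGGGGC for CTCF, TGTTTAC for FOXA factors, CAAAGTC for HNF4, TTGCNNAA for C/EBP factors and CCAAT for NF-Y. Of 316 list genes, 312 were in the gene table. Motifs in windows around summits had been planned but were not searched, for want of a genome sequence here.

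The text names the 25 WT-only regions of highest rank, the 10 highest at gene boundaries, the 3 lowest, genes with 3 or more, and regions assigned within 100 kb to a gene of the 16 lists. The members, lists and motifs were chosen with earlier results of these data known. Peak names within the lists number the replicates differently from the labels, which were followed here.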

Additional observations from a re-analysis of the deposited data

How the results depend on the processing

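The count of 1218 WT-only regions was between 986 and 1605 under 8 alternatives (50% overlap, a gap of 500 bp, windows of 100 bp around summits, lists of equal length by fold or by q, q of at most 0.01 in all lists or in WT only, autosomes), and between 1712 and 8402 without a library, which asks less of a region. With lists of equal length, WT-only and KO-only regions numbered 1015 and 1022 by fold, and 986 and 1057 by q, so the excess of WT-only regions was absent; the cause was not tested. The boundary share of 8.05% was 15.1% with summit windows and 13.2% within 2 kb of a gene end, and 8.09% to 9.17% without a library. The boundary difference of −10.9 points between WT-only and same-rank shared regions kept its sign in all 16 alternatives. It was −5.19 with summit windows, −12.9 with lists of equal length by either measure, −14.3 within 2 kb, −13.4 from the region's edge, and −10.7 to −7.72 without a library; it was −10.3 with ranks by q, an alternative chosen after seeing the data. Of the 97 regions named by rule, 60 were kept with lists of equal length by fold, 70 by q, and 53 in all of 7 settings. Of the 25 of highest rank, 23 were kept in all 7, with Fam178b lost under the gap and Wdhd1 under summit windows, but of 46 at list genes only 15 were. The hepatocyte share, recomputed after seeing the data, was 13.9% to 17.6% under the 8 alternatives and 15.6% to 34.2% without a library. Motif alternatives in summit windows were not run for want of a genome sequence. No paired analysis was possible because the result comes from no test, and both lists of each genotype enter the rule whatever their number. Depth limits all of this: a WT replicate 2 summit at background needed 9 fragments, and a median WT-only summit there had 14.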

Other observations

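Outside chromosomes 1 to 19 and X, the lists held a few more peaks, 41 and 45 in Hemgn KO replicates 1 and 2 and 61 and 48 in WT replicates 1 and 2. Merged in the same way, they made 69 regions on chromosome Y, the mitochondrial genome and unplaced scaffolds, of which 7 were WT-only, 0 KO-only and 32 in all 4 lists.

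Ordering the WT-only regions by −log10 q in place of fold kept 21 of the 25 of highest rank and brought in regions at Ankrd11, Hba-a1, Lig3 and Trp53. The region in Ankrd11, a chromatin regulator gene on chromosome 8 (chr8:123036940-123037255), had −log10 q of 69.7 and 23.1 in WT replicates 1 and 2 at folds of 4.55 and 4.18. The region at Lig3, a DNA ligase gene (chr11:82819293-82819767), had −log10 q of 50.2 and 16.9 at folds of 7.80 and 6.69.

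A microRNA gene was within 1 kb of 1 WT-only region, Mir6942 at the region by Zkscan3 (chr13:21396252-21396617, rank 8.23). The remaining motifs searched in the 34 promoters under WT-only regions were CAGNTG in 55.9%, CCAAT in 44.1%, TGTGGT in 20.6%, AGGGGGC in 8.82%, and TGTTTAC and CAAAGTC in 5.88% each. In promoters under shared regions of the same ranks the shares were 49.1%, 32.5%, 13.3%, 19.9%, 3.802% and 3.807% in this order. Under KO-only regions they were 50%, 38.1%, 11.9%, 7.14%, 4.76% and 7.14%.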
